A study of Mus musculus with 6 samples.

Results

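Collagens, laminins, a few further matrix proteins and the integrin receptors were followed in E0771, a mammary carcinoma line from C57BL/6 mice, after treatment with Enniatin A (EnnA) or 17-AAG. The genes were chosen by name: symbols of collagen chains, laminin chains and integrin chains, together with Fn1, Sparc, Lox, Nid1 and Hspg2. This gave 36 genes of the 11397 listed in the deposited tables, 34 of 11024 in the EnnA table and 36 of 11305 in the 17-AAG table. They were 14 collagen, 5 laminin, 7 integrin alpha and 6 integrin beta genes, the 3 matrix genes Sparc, Nid1 and Hspg2, and Col4a3bp. Fn1 and Lox were listed in neither table and were not analysed here. Col4a3bp matches the collagen pattern by its letters only: it encodes a ceramide transfer protein and is kept apart from the families below.

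EnnA is a cyclic depsipeptide made by Fusarium fungi, and 17-AAG, derived from geldanamycin, is an inhibitor of the chaperone HSP90. EnnA was given at 7.4 µM and 17-AAG at 0.5 µM, each for 24 h, to cells grown for 48 h. The control cells received the solvent DMSO, for a time the labels do not state. Each of the 3 groups had 2 libraries, and both compounds were set against the same DMSO libraries. A gene called alike with both compounds is therefore not 2 independent results. The deposited tables hold 1 value per gene and group, pooled over the libraries and read here as FPKM (fragments scaled by transcript length and by sequencing depth), a unit the tables do not name. Levels therefore carry no standard deviation, and the depth of each library is unknown.

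Collagens are the scaffold of the extracellular matrix. Fibrillar collagens form the cords of connective tissue, whereas basement membranes are sheets of type IV collagen and laminin tied together by nidogen and the proteoglycan perlecan. Collagen chains wind into triple helices and laminins assemble from an alpha, a beta and a gamma chain, all inside the endoplasmic reticulum before secretion. Integrins, each made of an alpha and a beta chain, bind these proteins at the cell surface and connect them through talin and kindlin to actin. In breast tumours both kinds of matrix and their integrins are studied for their part in invasion.

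A log2 change below is the log2 of compound over DMSO after 1 FPKM was added to both values, unless stated otherwise. A gene is said to have risen or fallen only when the q-value of the authors' Cuffdiff test was under 0.05. Some changes are given with a standard error worked out from the authors' p, called the implied SE, which is an upper limit for genes at the lowest p of 5e-05. DMSO values were 1.10 times higher in the 17-AAG table at the median gene, so levels are compared within a table. In bulk RNA, fewer cells that carry a transcript and less of it per cell cannot be told apart. Among cell type markers, 0 of 4 endothelial, 0 of 5 lymphocyte and 0 of 4 basal epithelial genes were listed. Only Krt8 and Epcam were listed of 6 luminal epithelial markers. Krt8 had 11.2 FPKM with EnnA against 17.7 FPKM with DMSO, and 29.3 FPKM with 17-AAG against 19.3 FPKM with DMSO. Epcam lay between 1.61 and 1.85 FPKM in all groups. Of 6 fibroblast markers only Pdgfra and Pdgfrb were listed, with a summed level of 33.7 FPKM with EnnA against 14.9 FPKM with DMSO and 20.4 FPKM with 17-AAG against 16.3 FPKM with DMSO. Of 5 myeloid markers only Cd68 and Lyz2 were listed, and they went opposite ways with EnnA. Cd68 rose to 89.1 FPKM with EnnA against 38.0 FPKM with DMSO, and fell to 17.1 FPKM with 17-AAG against 41.6 FPKM with DMSO. Lyz2 fell to 8.73 FPKM with EnnA against 12.2 FPKM with DMSO, and had 15.8 FPKM with 17-AAG against 13.3 FPKM with DMSO, which was not called. Their sum was 97.9 FPKM with EnnA against 50.1 FPKM with DMSO, and 32.9 FPKM with 17-AAG against 54.9 FPKM with DMSO. The fibroblast markers Thy1, Fap, Dcn and Lum and the leukocyte marker Ptprc were not listed, and the part of these markers in the results was not tested.

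In DMSO-treated cells integrin and basement membrane genes were among the most abundant of these genes. Itgb1, the beta chain shared by most matrix-binding integrins, had the highest level, 500.6 FPKM in the EnnA table, which was rank 116 among all 11024 genes. Sparc, a secreted collagen-binding glycoprotein, followed at 196.8 FPKM, and Col3a1, a fibrillar collagen, at 63.7 FPKM. Basement membrane genes were among the next: Col18a1 with 46.6 FPKM, Col4a1 with 45.7 FPKM and the laminin chain Lamc1 with 42.2 FPKM. Col1a1, the main fibrillar collagen of connective tissue, was near the bottom with 0.566 FPKM. Itga6, an alpha chain of laminin-binding integrins, led its family with 59.4 FPKM, 55.1% of the summed alpha chain FPKM.

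**Figure D1:**
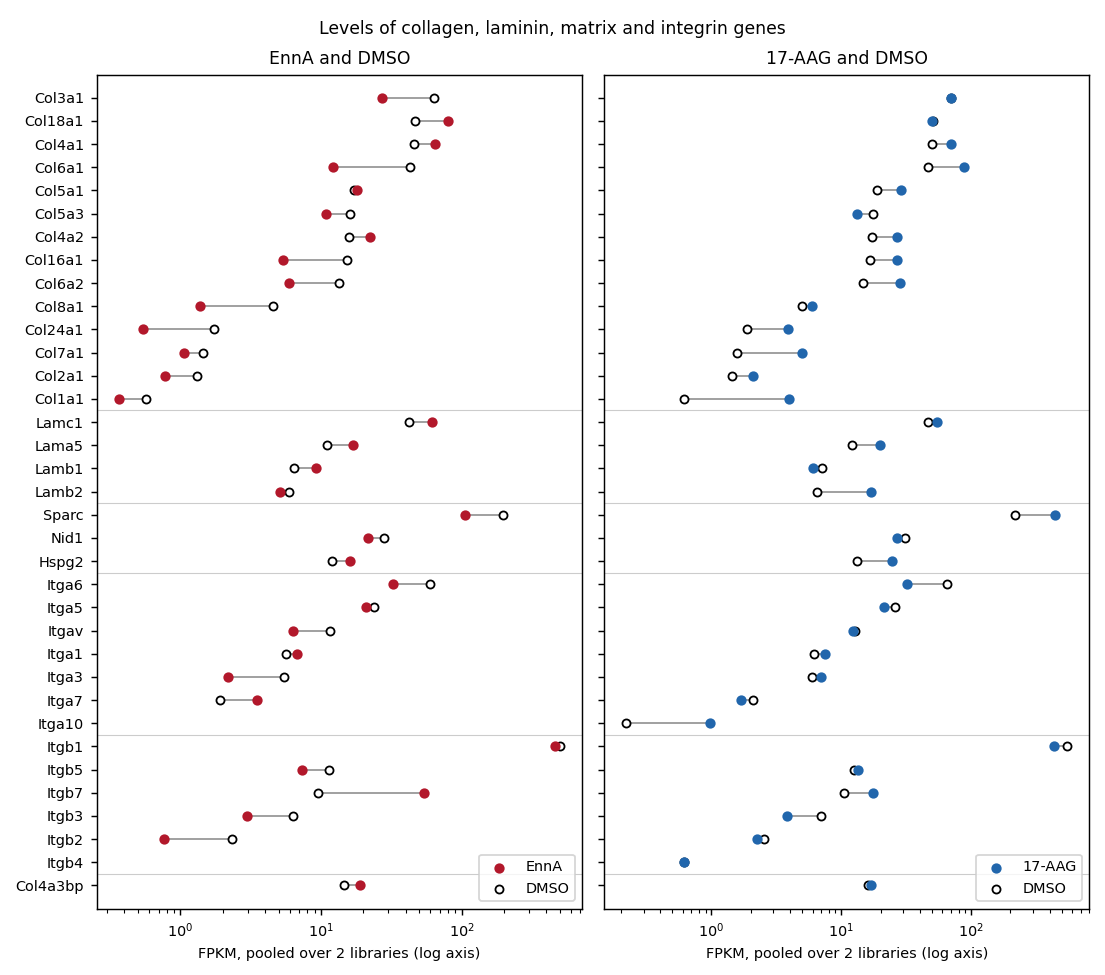
Levels of 35 of the genes in pooled FPKM on a log axis, with EnnA (left panel, red) or 17-AAG (right panel, blue) as filled points and DMSO of the same table as open points; rows are grouped as collagens, laminins, other matrix proteins, integrin alpha chains, integrin beta chains and Col4a3bp. Itgb1 stands highest with EnnA (462.4 FPKM) and with DMSO, and Sparc (438.6 FPKM) just above Itgb1 (432.7 FPKM) with 17-AAG; the widest gaps between points are those of Itgb7 with EnnA and Col1a1 with 17-AAG.

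EnnA changed most of these genes and moved them in both directions. Of 34 listed genes, 11 rose and 17 fell, where 24.3% of all genes rose and 24.9% fell (49.2% in either direction). Type VI, type VIII and type XVI collagens, 4 of 6 fibrillar collagens, Sparc and several integrins were lower, while type IV and type XVIII collagens, most laminin chains, perlecan (Hspg2) and the integrin chain genes Itgb7 and Itga7 were higher. At q under 0.01, 9 rose and 15 fell, where 18.5% and 19.9% of all genes did. With a change of at least 2-fold after 1 FPKM was added, 1 rose (Itgb7) and 6 fell (Col6a1, Col16a1, Col8a1, Col3a1, Col6a2 and Itga3), where 3.9% and 4.42% of all genes did. Without the added FPKM, Col24a1 (3.19-fold lower), Itgb2 (3.02-fold lower) and Itgb3 (2.12-fold lower) passed 2-fold too. The median log2 change of the listed genes was -0.22, against -0.0068 for all genes; it was -0.39 with 0.1 FPKM added and -0.41 with none. Summed over the 14 collagens, the level was 251.2 FPKM with EnnA and 285.9 FPKM with DMSO.

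With 17-AAG most matrix genes rose, while the integrins were called about as often as genes in general. Of 36 listed genes, 17 rose and 3 fell, where 15.6% of all genes rose and 16.1% fell (31.6% in either direction). Of the 22 collagen, laminin and other matrix genes 15 rose and 1 fell, and of the 13 integrins 2 rose and 2 fell. At q under 0.01, 16 rose and 2 fell, where 9.77% and 10.4% of all genes did. With a change of at least 2-fold after 1 FPKM was added, 4 rose (Col1a1, Lamb2, Col7a1 and Sparc) and 1 fell (Itga6), where 1.39% and 0.92% of all genes did. Without the added FPKM, Itga10 (4.39-fold higher) and Col24a1 (2.06-fold higher) passed 2-fold too. The median log2 change was 0.23 for the listed genes, against -0.0077 for all genes. Collagens summed to 422.6 FPKM with 17-AAG and 313.3 FPKM with DMSO. Log2 changes with 17-AAG ran with transcript length over all genes, with a median of -0.25 in the 10% of genes with the shortest transcripts and 0.17 in the 10% with the longest. The listed genes are long, with a median transcript of 5580 bases against 3295 for all genes. When each change was set against genes of similar length and tested again, 16 of these genes rose and 3 fell, where 14.5% of all genes rose and 12.4% fell. Col4a1 was the call lost.

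**Figure D2:**
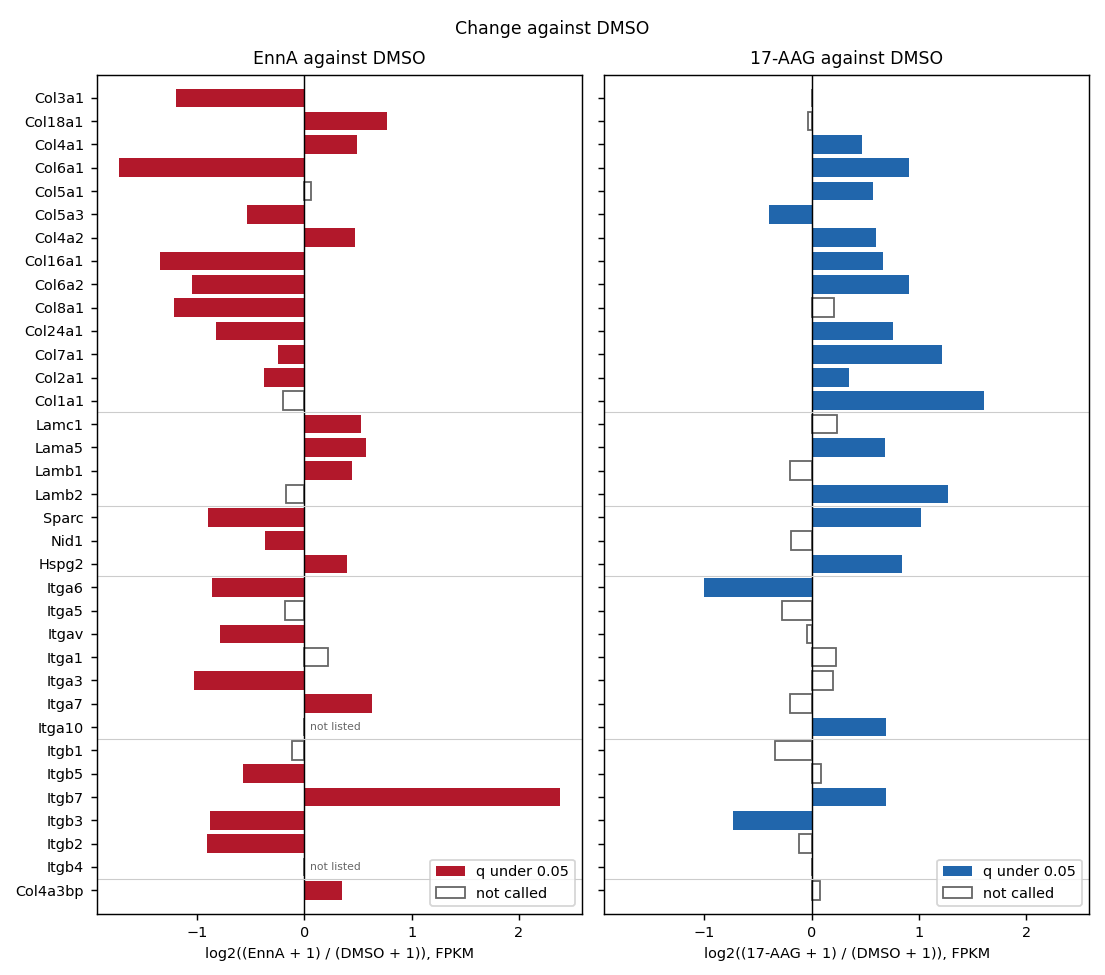
Log2((compound + 1)/(DMSO + 1)) of FPKM for 35 of the genes, EnnA in the left panel and 17-AAG in the right, with filled bars at q under 0.05 and open bars for genes not called; rows are ordered as in the plot of levels. Bars of the collagens point mostly left with EnnA and mostly right with 17-AAG, while Col4a1, Col4a2, Lama5, Hspg2 and Itgb7 point right and are filled in both panels.

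**Figure D3:**
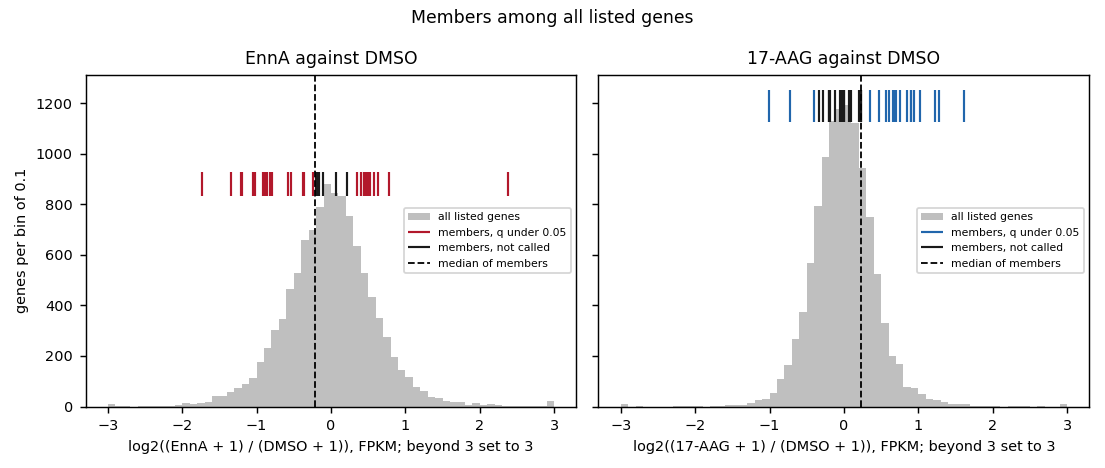
Distribution of log2((compound + 1)/(DMSO + 1)) over all listed genes (grey bars, genes per bin of 0.1, values beyond 3 set to 3) for EnnA (left) and 17-AAG (right); ticks mark the collagen, laminin, matrix and integrin genes and the dashed line their median. With EnnA the coloured ticks lie on both sides of 0 with a median of -0.22, and with 17-AAG most lie above 0 with a median of 0.23.

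Col6a1 encodes a chain of type VI collagen, which forms beaded filaments around cells. It showed the widest contrast between the compounds among collagens above 10 FPKM with DMSO. Col6a1 (mm9 chr10:76171536-76188789) had 12.1 FPKM with EnnA against 42.6 FPKM with DMSO, and 88.4 FPKM with 17-AAG against 46.7 FPKM with DMSO. The log2 changes were -1.73 with EnnA and 0.91 with 17-AAG. In the authors' deposited tables, with the sign turned so that compound is over DMSO, they were -1.81 (implied SE at most 0.45, q = 0.000207) and 0.92 (implied SE at most 0.23, q = 0.000453). Its partner chain Col6a2 (chr10:76058500-76086149) had 5.96 FPKM with EnnA against 13.4 FPKM with DMSO, and 28.3 FPKM with 17-AAG against 14.6 FPKM with DMSO. Both chains thus fell with EnnA and rose with 17-AAG. The ratio of Col6a1 to Col6a2, both per length, was 2.03 with EnnA against 3.19 with DMSO, and 3.13 with 17-AAG against 3.19 with DMSO.

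Fibrillar collagens fell or were uncalled with EnnA: of 6 listed, 0 rose and 4 fell, where 24.3% of all genes rose and 24.9% fell. With 17-AAG 4 rose and 1 fell, where 15.6% and 16.1% of all genes did. Col3a1, the most abundant of these fibrillar collagens, had 27.3 FPKM with EnnA against 63.7 FPKM with DMSO (log2 change -1.20). With 17-AAG it had 70.2 FPKM against 69.8 FPKM with DMSO and was not called (log2 change 0.0071). Col1a1 (chr11:94797583-94813170) had 3.95 FPKM with 17-AAG against 0.620 FPKM with DMSO, the largest rise with 17-AAG among the listed genes (log2 change 1.61). The authors' deposited table gives 2.67 without the added FPKM (implied SE at most 0.66). With EnnA Col1a1 had 0.364 FPKM against 0.566 FPKM with DMSO and was not called.

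Among the remaining fibrillar chains only Col5a3 fell with both compounds. Col5a3, a minor chain of type V collagen, had 10.8 FPKM with EnnA against 16.1 FPKM with DMSO (log2 change -0.53), and 13.2 FPKM with 17-AAG against 17.7 FPKM with DMSO (log2 change -0.40). Col5a1, the chain common to most type V trimers, had 18.1 FPKM with EnnA against 17.2 FPKM with DMSO and was not called, and rose to 28.5 FPKM with 17-AAG, against 18.9 FPKM with DMSO (log2 change 0.57). Low levels were measured for Col24a1, with 0.539 FPKM with EnnA against 1.72 FPKM with DMSO and 3.88 FPKM with 17-AAG against 1.88 FPKM with DMSO. Col2a1, known as the collagen of cartilage, had 0.779 FPKM with EnnA against 1.30 FPKM with DMSO and 2.09 FPKM with 17-AAG against 1.43 FPKM with DMSO. Both fell with EnnA and rose with 17-AAG.

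All 3 collagens outside the fibrillar, type VI and basement membrane groups fell with EnnA, where 24.9% of all genes fell. Col16a1, which associates with fibrils and basement membranes, had 5.39 FPKM with EnnA against 15.3 FPKM with DMSO (log2 change -1.35), and 27.0 FPKM with 17-AAG against 16.7 FPKM with DMSO (log2 change 0.66). Col7a1, the anchoring fibril of skin, had 1.06 FPKM with EnnA against 1.44 FPKM with DMSO (log2 change -0.24), and 5.01 FPKM with 17-AAG against 1.58 FPKM with DMSO (log2 change 1.22). Col8a1, a network collagen known from vessel walls, had 1.38 FPKM with EnnA against 4.52 FPKM with DMSO (log2 change -1.21), while with 17-AAG it had 5.90 FPKM against 4.96 FPKM with DMSO and was not called. Col16a1 and Col7a1 therefore fell with EnnA and rose with 17-AAG, and Col8a1 fell with EnnA.

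With EnnA all 3 basement membrane collagens rose and 0 of the other 11 collagens did, and with 17-AAG 2 of the 3 rose. Over all genes, 24.3% rose with EnnA and 15.6% with 17-AAG. The classes of collagens were chosen with earlier results of these data known, so the split between classes is a description only. Col16a1, which also associates with basement membranes, was placed outside the class and fell with EnnA. Col7a1 and Col8a1 were placed outside it too and fell, so the split depends on where such chains are placed. The rise of Col4a1 with 17-AAG was not called when transcript length was taken into account. Col4a1 (chr8:11198422-11312826), a chain of the type IV network, had 64.9 FPKM with EnnA against 45.7 FPKM with DMSO, and 69.6 FPKM with 17-AAG against 50.1 FPKM with DMSO. Col4a2 (chr8:11312828-11449287), its partner in the same trimer, had 22.2 FPKM with EnnA against 15.8 FPKM with DMSO, and 26.7 FPKM with 17-AAG against 17.3 FPKM with DMSO. Log2 changes were 0.50 and 0.47 with EnnA and 0.47 and 0.60 with 17-AAG for Col4a1 and Col4a2. Col4a1 exceeded Col4a2 per length by 2.92 times with EnnA against 2.90 times with DMSO, and by 2.60 times with 17-AAG against 2.90 times with DMSO. Col18a1, the source of the fragment endostatin, had 80.4 FPKM with EnnA against 46.6 FPKM with DMSO (log2 change 0.77), and 49.96 FPKM with 17-AAG against 51.1 FPKM with DMSO, which was not called. Its locus, chr10:76514923-76629275, lies between those of Col6a1 and Itgb2 (chr10:76993092-77028419), and both of these fell with EnnA.

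Col4a1 and Col4a2 are arranged head to head, and their promoter windows are shown because the genes rose together and share sequence. In RefSeq (GRCm38.p6) their start sites lie 21 bases apart on opposite strands, and 78 bases are common to both windows of 250 bases before to 50 after the start. The Col6a1 window is shown for the chain with the widest contrast between the compounds among collagens above 10 FPKM with DMSO, and the Itgb7 window for the largest rise with EnnA. Capitals mark the letters CCAAT and GGGCGG on either strand; no base was in both motifs. Windows are chr8:11312777-11313076 (minus strand) for Col4a1, chr8:11312555-11312854 (plus) for Col4a2, chr10:76725995-76726294 (minus) for Col6a1 and chr15:102231886-102232185 (minus) for Itgb7.
Col4a1: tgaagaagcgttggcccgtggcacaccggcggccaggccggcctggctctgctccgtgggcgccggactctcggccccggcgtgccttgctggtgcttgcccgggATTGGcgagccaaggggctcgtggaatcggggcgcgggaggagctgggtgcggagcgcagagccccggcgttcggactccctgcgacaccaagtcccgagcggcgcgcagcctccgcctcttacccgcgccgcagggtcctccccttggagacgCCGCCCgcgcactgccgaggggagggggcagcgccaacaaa
Col4a2: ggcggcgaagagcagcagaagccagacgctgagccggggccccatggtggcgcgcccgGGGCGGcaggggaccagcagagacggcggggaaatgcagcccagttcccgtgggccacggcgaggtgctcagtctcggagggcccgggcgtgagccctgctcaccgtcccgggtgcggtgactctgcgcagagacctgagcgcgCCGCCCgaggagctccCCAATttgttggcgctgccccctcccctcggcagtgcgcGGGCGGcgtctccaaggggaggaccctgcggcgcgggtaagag
Col6a1: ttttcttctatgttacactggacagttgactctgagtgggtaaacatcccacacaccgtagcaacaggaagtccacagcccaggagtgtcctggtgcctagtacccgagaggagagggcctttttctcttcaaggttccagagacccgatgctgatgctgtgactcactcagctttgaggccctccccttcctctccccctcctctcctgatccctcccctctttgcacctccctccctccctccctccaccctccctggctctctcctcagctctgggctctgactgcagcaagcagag
Itgb7: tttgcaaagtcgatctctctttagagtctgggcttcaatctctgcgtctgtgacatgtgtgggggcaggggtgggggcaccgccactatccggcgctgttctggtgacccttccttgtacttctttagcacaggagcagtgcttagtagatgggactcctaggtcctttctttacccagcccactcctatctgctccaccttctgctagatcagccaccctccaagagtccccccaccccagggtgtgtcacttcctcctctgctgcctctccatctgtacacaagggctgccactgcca
The Col4a1 window holds 1 of each motif and the Col4a2 window 1 CCAAT and 3 GGGCGG, while the Col6a1 and Itgb7 windows hold neither. The GGGCGG of Col4a1 lies in the shared bases and is the same site as 1 of those of Col4a2, counted for both genes. RefSeq windows were matched for 27 of the 36 genes, of which 19 hold GGGCGG and 9 hold CCAAT. Counted by window, that is 70% and 30% of their 30 windows, against 35.7% and 37.4% of all 32851 windows. All windows include those of genes not listed here, and the share over listed genes only was not computed. GGGCGG was present for 7 of 8 matched genes that rose and 9 of 13 that fell with EnnA, and for 3 of 5 not called. With 17-AAG it was present for 8 of 14 that rose, 1 of 1 that fell and 10 of 12 not called. Searched on both strands, the endoplasmic reticulum stress element (CCAAT and, 9 bases on, CCACG, so that it contains CCAAT), the ATF4 core TGATGNAA and the heat shock element (GAA, TTC and GAA with 2 bases between them) were in none of the 30 windows. They were in 0.119%, 3.97% and 0.603% of all windows.

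Laminin chains rose or were uncalled with both compounds, but the beta chain that rose differed. Of the 4 chains described here, 3 rose with EnnA and 2 with 17-AAG, and 0 fell with either. Over all genes, 24.3% rose and 24.9% fell with EnnA, and 15.6% rose and 16.1% fell with 17-AAG. Lama5, the alpha chain of the most widespread adult laminins, had 16.9 FPKM with EnnA against 10.97 FPKM with DMSO (log2 change 0.58), and 19.96 FPKM with 17-AAG against 12.0 FPKM with DMSO (log2 change 0.69). Lamb1 had 9.16 FPKM with EnnA against 6.47 FPKM with DMSO (log2 change 0.44), and 6.04 FPKM with 17-AAG against 7.08 FPKM with DMSO, which was not called. Lamb2, the other beta chain, had 5.12 FPKM with EnnA against 5.87 FPKM with DMSO, which was not called, and 17.0 FPKM with 17-AAG against 6.44 FPKM with DMSO (log2 change 1.27). The ratio of Lamb1 to Lamb2 was therefore 1.79 with EnnA against 1.10 with DMSO, and 0.356 with 17-AAG against 1.10 with DMSO. Lamc1, the gamma chain common to most laminins, had 61.4 FPKM with EnnA against 42.2 FPKM with DMSO (log2 change 0.53), and 54.4 FPKM with 17-AAG against 46.2 FPKM with DMSO, which was not called.

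The 3 further matrix genes each behaved differently. Sparc (chr11:55208002-55233582) had 105.1 FPKM with EnnA against 196.8 FPKM with DMSO, and 438.6 FPKM with 17-AAG against 215.6 FPKM with DMSO. Its log2 changes were -0.90 with EnnA and 1.02 with 17-AAG, and the authors' deposited tables give -0.90 (implied SE at most 0.22) and 1.02 (implied SE at most 0.25). This abundant gene thus fell with EnnA and rose with 17-AAG. Hspg2, which encodes perlecan, rose with both compounds, to 16.2 FPKM with EnnA against 12.0 FPKM with DMSO and to 24.4 FPKM with 17-AAG against 13.2 FPKM with DMSO. Nid1, the nidogen that links laminin to type IV collagen, had 21.7 FPKM with EnnA against 28.2 FPKM with DMSO and fell (log2 change -0.36), whereas with 17-AAG it had 26.9 FPKM against 30.9 FPKM with DMSO and was not called. With EnnA Nid1 thus fell while both type IV chains and Lamc1 rose.

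Among integrin alpha chains, Itga6 fell with both compounds. Itga6 (chr2:71625139-71694815), whose dimers bind laminin, had 32.3 FPKM with EnnA against 59.4 FPKM with DMSO (log2 change -0.86), and 32.0 FPKM with 17-AAG against 65.1 FPKM with DMSO (log2 change -1.002). Its share of the summed alpha chain FPKM was 44.98% with EnnA against 55.1% with DMSO, and 38.8% with 17-AAG against 55.0% with DMSO. Itga3, another laminin receptor chain, had 2.17 FPKM with EnnA against 5.45 FPKM with DMSO (log2 change -1.03), and 6.997 FPKM with 17-AAG against 5.97 FPKM with DMSO, which was not called. Itgav, which pairs with several beta chains to bind vitronectin and fibronectin, had 6.31 FPKM with EnnA against 11.6 FPKM with DMSO (log2 change -0.79), and 12.3 FPKM with 17-AAG against 12.7 FPKM with DMSO, which was not called. Itga7, a laminin receptor chain known from muscle, was the alpha chain that rose with EnnA, with 3.51 FPKM against 1.90 FPKM with DMSO (log2 change 0.63). With 17-AAG it had 1.68 FPKM against 2.09 FPKM with DMSO and was not called.

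The remaining alpha chains were not called with EnnA or not listed there. Itga5, of the main fibronectin receptor, had 20.8 FPKM with EnnA against 23.7 FPKM with DMSO and 21.2 FPKM with 17-AAG against 26.0 FPKM with DMSO. Itga1, a collagen receptor chain, had 6.74 FPKM with EnnA against 5.65 FPKM with DMSO and 7.41 FPKM with 17-AAG against 6.19 FPKM with DMSO; it shares its locus with Pelo, so its value is uncertain. Neither was called with either compound. Itga10, a further collagen receptor chain, was listed only with 17-AAG, where it rose to 0.966 FPKM against 0.220 FPKM with DMSO. Every gene of that table has at least 0.538 FPKM in a group, a level that Itga10 passed only with 17-AAG.

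On the log2 scale with 1 FPKM added, Itgb7 had the largest change of all these genes. This beta chain, known from integrins of lymphocytes that home to the gut, had 54.2 FPKM with EnnA against 9.58 FPKM with DMSO, and 17.6 FPKM with 17-AAG against 10.5 FPKM with DMSO. The log2 changes were 2.38 with EnnA and 0.69 with 17-AAG, and the authors' deposited tables give 2.50 (implied SE at most 0.62) and 0.75 (implied SE at most 0.18). Its locus is chr15:102046425-102062366, and its known alpha partners Itga4 and Itgae were listed in neither table. With either compound Itgb7 was the second most abundant beta chain, above Itgb5, and with DMSO it was below Itgb5. Beside it, the lymphocyte markers Cd3e, Cd4, Cd8a and Cd79a and the pan-leukocyte marker Ptprc were not listed.

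The other beta chains fell or were not called. Itgb1 had 462.4 FPKM with EnnA against 500.6 FPKM with DMSO (log2 change -0.11, not called). With 17-AAG it had 432.7 FPKM against 548.5 FPKM with DMSO (log2 change -0.34), and the q of 0.0526 in the authors' deposited table was just above the threshold. Itgb1 made up 87.6% of the summed beta chain FPKM with EnnA against 94.4% with DMSO, and 92.0% with 17-AAG against 94.3% with DMSO. Itgb3, a partner of Itgav, fell with both compounds, to 2.99 FPKM with EnnA against 6.35 FPKM with DMSO and to 3.798 FPKM with 17-AAG against 6.96 FPKM with DMSO. Itgb5, another partner of Itgav, had 7.34 FPKM with EnnA against 11.4 FPKM with DMSO (log2 change -0.58), and 13.4 FPKM with 17-AAG against 12.5 FPKM with DMSO, which was not called. Itgb2, known as the leukocyte beta chain, had 0.770 FPKM with EnnA against 2.33 FPKM with DMSO (log2 change -0.91), and 2.26 FPKM with 17-AAG against 2.55 FPKM with DMSO, which was not called. Itgb4, the hemidesmosome chain, was listed only with 17-AAG at 0.614 FPKM against 0.609 FPKM with DMSO, not called, in a locus shared with Galk1 that makes it uncertain. Col4a3bp had 19.0 FPKM with EnnA against 14.6 FPKM with DMSO and rose, and 16.9 FPKM with 17-AAG against 16.03 FPKM with DMSO, which was not called.

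Set directly against each other, the compounds differed for most of these genes, and mainly by lower values with EnnA. The difference of the log2 changes, EnnA minus 17-AAG and without the added FPKM, was tested for all 10922 genes with both values, using the implied errors and Benjamini-Hochberg adjustment. Of the 34 genes, 4 were higher and 16 lower with EnnA at an adjusted p under 0.05, where 19.3% of all genes were higher and 18.9% lower (38.2% in either direction). With a difference of at least 1 as well, 2 were higher and 13 lower, where 6.6% and 10.4% of all genes were. The median difference was -0.49 for the 34 genes and 0.022 for all. Those lower with EnnA were 10 collagens, Lamb2, Sparc and the integrin genes Itga3, Itgav, Itgb2 and Itgb5. Those higher were Itgb7, Itga7, Col18a1 and Lamb1.

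The 3 largest differences, without the added FPKM, were those of Col1a1, Col6a1 and Col24a1. Every gene of the EnnA table has at least 0.56 FPKM in a group. Col1a1 and Col24a1 passed that level there only with DMSO, so with EnnA they could be listed only as lower. For Col6a1 the difference was -2.73 (95% interval -3.72 to -1.75), for Col24a1 -2.71 (-3.67 to -1.76) and for Sparc -1.93 (-2.59 to -1.27). Col1a1, at levels under 4 FPKM, had -3.31 (-4.73 to -1.89), the widest interval. On the other side stood Itgb7 with 1.76 (0.49 to 3.02) and Col18a1 with 0.82 (0.35 to 1.29). No difference was called for Col4a1, at 0.031 (-0.36 to 0.42), for Col4a2, at -0.14 (-0.56 to 0.28), for Lama5, at -0.11 (-0.58 to 0.35), or for Itga6, at 0.14 (-0.51 to 0.80). These intervals leave room for differences in either direction, up to the bounds given. Apart from Col4a1, the genes named in this paragraph were at the lowest p with EnnA, 17-AAG or both. The intervals of those genes are therefore upper limits in width, and they widen with the size of the change. The compounds were given at different doses. Both changes share the DMSO libraries, so the intervals combine errors that are not independent.

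**Figure D4:**
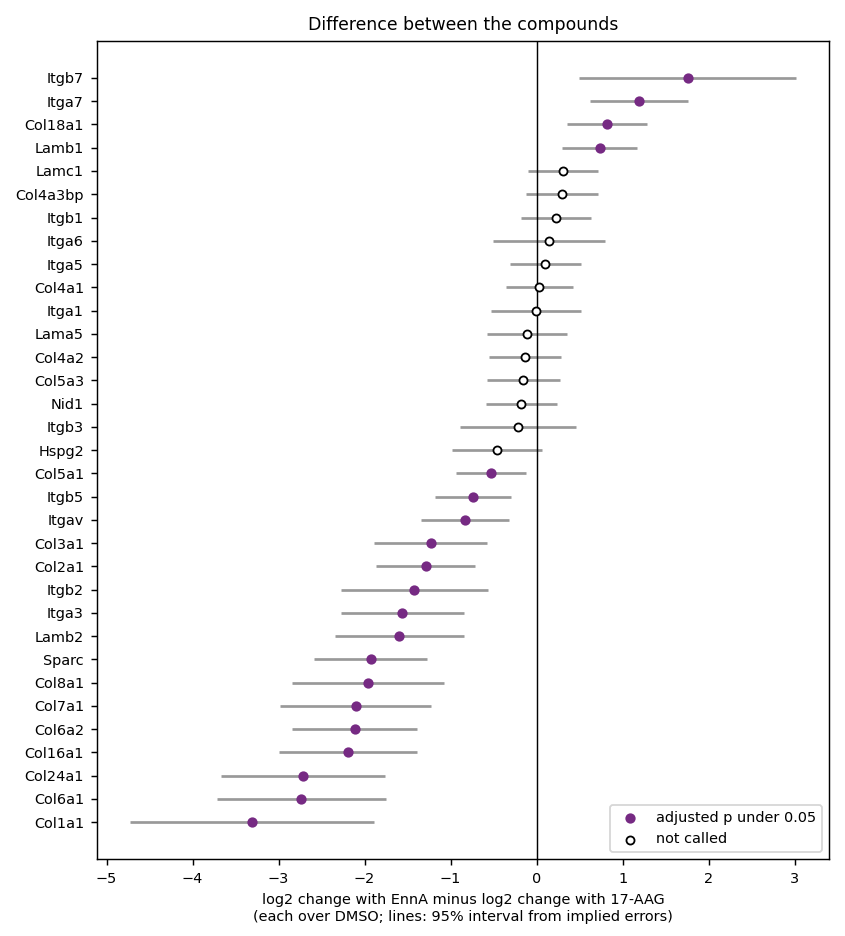
Difference between the log2 changes with EnnA and with 17-AAG, each over DMSO, for 33 of the 34 genes in both tables (x axis, log2 units; lines give the 95% interval from the implied errors). Filled points passed an adjusted p of 0.05. Of these, 16 lie below 0, from Col1a1 at -3.31 to Col5a1 at -0.53, and 4 above, led by Itgb7 at 1.76. Line lengths are upper limits for genes at the lowest p of 5e-05 with either compound.

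Among genes that modify, fold and export collagen, more rose than fell with either compound. Of 23 listed with EnnA, 9 rose and 5 fell (median log2 change -0.017), and of 25 listed with 17-AAG, 7 rose and 2 fell (0.15). Over all genes, 24.3% rose and 24.9% fell with EnnA, and 15.6% rose and 16.1% fell with 17-AAG. Serpinh1, the collagen-specific chaperone HSP47, had 1035 FPKM with EnnA against 628.8 FPKM with DMSO, and 986.1 FPKM with 17-AAG against 688.9 FPKM with DMSO, and rose with both. The prolyl hydroxylase gene P4ha2 rose with both, with log2 changes of 0.48 with EnnA and 0.76 with 17-AAG. EnnA lowered the lysyl hydroxylase gene Plod2, with 24.8 FPKM against 73.7 FPKM with DMSO, while 17-AAG raised Plod1, with 25.7 FPKM against 11.2 FPKM with DMSO. Tgm2, a transglutaminase that crosslinks matrix proteins, had log2 changes of 1.27 with EnnA and 0.37 with 17-AAG and rose with both. The crosslinking enzyme gene Loxl2 fell with EnnA (log2 change -0.97). Pcolce, which speeds the trimming of procollagen, rose with 17-AAG to 163.0 FPKM against 71.6 FPKM with DMSO, whereas its relative Pcolce2 fell with both (-0.98 with EnnA and -1.26 with 17-AAG).

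Other matrix glycoproteins and proteoglycans mostly fell or were uncalled with EnnA and mostly rose with 17-AAG. Of 15 listed with EnnA, 1 rose and 7 fell (median log2 change -0.21), and of 17 listed with 17-AAG, 11 rose and 2 fell (0.54). With EnnA the number called in either direction was near the background of 49.2%, and with 17-AAG 15.6% of all genes rose. Tgfbi, a collagen-binding adhesion protein, had 1.30 FPKM with EnnA against 3.66 FPKM with DMSO, and 13.4 FPKM with 17-AAG against 4.01 FPKM with DMSO. Efemp2, needed for elastic fibres, had 15.0 FPKM with EnnA against 30.8 FPKM with DMSO, and 57.5 FPKM with 17-AAG against 33.8 FPKM with DMSO. Fbln2, which binds basement membrane proteins, had log2 changes of -1.10 with EnnA and 0.46 with 17-AAG. All 3 fell with EnnA and rose with 17-AAG. Matn4 and Ctgf rose with 17-AAG (log2 changes 1.37 and 1.005), from low levels of 0.756 and 0.945 FPKM with DMSO. Both fell with EnnA (-0.42 and -0.58), to 0.263 and 0.244 FPKM. Spp1, osteopontin, the most abundant of the list, had 768.9 FPKM with EnnA against 730.9 FPKM with DMSO and was not called, but fell to 262.9 FPKM with 17-AAG, against 800.9 FPKM with DMSO.

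Among 14 other matrix receptors, 3 rose and 7 fell with EnnA, and 3 rose and 6 fell with 17-AAG. The shares of all genes were 24.3% and 24.9% with EnnA, and 15.6% and 16.1% with 17-AAG, so the count that rose was near the background with both. Ddr2, a receptor kinase for fibrillar collagen, had 59.8 FPKM with EnnA against 26.8 FPKM with DMSO (log2 change 1.13), and 35.6 FPKM with 17-AAG against 29.4 FPKM with DMSO, which was not called. Ddr1, its relative, fell with EnnA and rose with 17-AAG (log2 changes -0.66 and 0.69). Dag1, the laminin receptor dystroglycan, had 6.83 FPKM with EnnA against 16.3 FPKM with DMSO (log2 change -1.14). Cd47, which associates with Itgb3, rose with EnnA and fell with 17-AAG (log2 changes 0.97 and -0.49), as did the tetraspanin gene Cd63 (0.98 and -0.49). Itga2b, the platelet integrin chain whose symbol falls outside the naming rule, fell to 0.622 FPKM with EnnA, against 1.01 FPKM with DMSO, and rose to 2.38 FPKM with 17-AAG, against 1.11 FPKM with DMSO. The tetraspanin Cd9 fell with both, at 764.7 FPKM with EnnA against 1052 FPKM with DMSO and 692.0 FPKM with 17-AAG against 1152 FPKM with DMSO.

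Cytoplasmic partners of integrins were called about as often as genes in general (49.2% with EnnA and 31.6% with 17-AAG). Of 27 listed genes of the adhesion complex, 4 rose and 9 fell with EnnA, and 6 rose and 2 fell with 17-AAG. Zyx, which encodes the force-sensing adaptor zyxin, rose to 83.5 FPKM with EnnA against 48.6 FPKM with DMSO, and Lims1, encoding PINCH, rose to 116.1 FPKM against 74.7 FPKM with DMSO. Ilk, the pseudokinase that binds PINCH, fell to 35.3 FPKM with EnnA against 54.7 FPKM with DMSO. Kank2, a talin-binding protein, fell with EnnA and rose with 17-AAG (log2 changes -0.96 and 0.94). Parva rose and Parvb fell with 17-AAG (log2 changes 0.65 and -0.67); both encode parvins, which bind the Ilk protein. The focal adhesion kinase gene Ptk2 and the paxillin gene Pxn were called with neither compound. Ptk2b, also of this list, fell to 3.36 FPKM with EnnA against 6.66 FPKM with DMSO (log2 change -0.81), and was not called with 17-AAG. Serpinh1, Ilk, Ptk2 and Pxn were named after their values were seen.

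**Figure D5:**
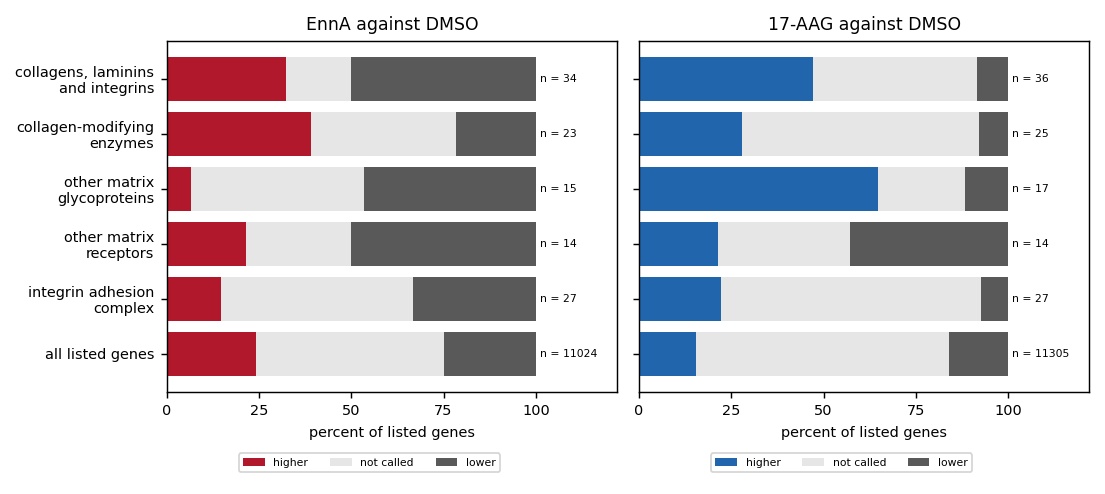
Percent of listed genes called higher (coloured), not called (light grey) and lower (dark grey) at q under 0.05 with EnnA (left) and 17-AAG (right), for the collagen, laminin and integrin genes, for 4 lists of related genes and for all listed genes, with the number of genes at the right of each bar. With 17-AAG the coloured part is widest for other matrix glycoproteins (11 of 17), where 15.6% of all genes rose. With EnnA the dark part covers 17 of 34 collagen, laminin and integrin genes, where 24.9% of all genes fell. It is about as wide for other matrix receptors (7 of 14) and other matrix glycoproteins (7 of 15). For the adhesion complex (9 of 27) and collagen-modifying enzymes (5 of 23) it is narrower.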

How the data were processed

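RNA sequencing libraries of E0771 cells (2 each with EnnA, 17-AAG and DMSO) were aligned with STAR to mm9 and compared with Cufflinks and Cuffdiff, per the submitters' processing notes, which name no versions. Each compound has its own table against DMSO, as deposited by the authors. The deposited group values name no unit and were taken to be FPKM, which Cuffdiff writes; per the file headers, 1 column stands for both libraries of a group, and the tables were scaled separately. The deposited log2 fold changes are DMSO over compound, checked against the FPKM columns (0 and 2 genes of the EnnA and 17-AAG tables were off by more than 0.1), and were turned. The deposited p-value and q-value were taken as Cuffdiff's, with a lowest p of 5e-05, and q equals the Benjamini-Hochberg adjustment of p over the table. Whether a locus start counts from 0 or 1 is not stated, and depth per library is unknown.

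A gene was called at q under 0.05. Log2 changes were computed with 1 FPKM added. The implied standard error is the size of the deposited log2 change over the normal quantile of its p. The difference between compounds is a z test on both implied errors, which rests on a normal approximation, and its errors were combined as if independent. Separate cultures are not named in the labels, so the spread behind these p-values may be technical. Transcript lengths are the longest GENCODE vM21 transcript per symbol, matched for 99.3% of genes. Members, lists and the classes of collagens were chosen with earlier results of these data known. Members called at 1 FPKM or more in a group were given in full, except 1 that is not reported here though counted, with up to 4 called examples per list and comparison by size of change, and 4 genes named outside this rule are marked in the text. Protein sequences were not used here. In Python 3.11.15 with scipy 1.17.1 and pandas 2.3.3, alternatives were a stricter threshold, a 2-fold minimum, a 1 FPKM minimum, a smaller or no added FPKM, centring on all genes and leaving out overlapping genes. Centring by transcript length, leaving out Col4a3bp and using only genes in both tables were added after seeing the data.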

Additional observations from a re-analysis of the deposited data

How the results depend on the processing

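All 48 calls of single genes against DMSO kept their direction with 0.1 FPKM added, nothing added, centring on all genes and centring by transcript length, and 6 were lost at q under 0.01 (Hspg2, Col4a3bp, Nid1 and Col7a1 with EnnA, Col2a1 and Col5a3 with 17-AAG). A minimum of 2-fold after 1 FPKM was added left 1 higher and 6 lower with EnnA, where 3.9% and 4.42% of all genes were called, and 4 higher and 1 lower with 17-AAG, where 1.39% and 0.92% were. Requiring a difference of at least 1 between the compounds left 2 genes higher with EnnA. Counts under the other alternatives stayed within 1.5 times those reported. The median log2 change lay between -0.41 and -0.21 with EnnA and between 0.15 and 0.29 with 17-AAG. No paired analysis was possible because the tables hold 1 pooled value per group; leaving out a library was not run for the same reason. Precision at low levels is limited: Col1a1, Itga10 and Itgb4 were under 1 FPKM with DMSO. The implied error of Itgb4, 1.18, divides a very small log2 change by a very small normal quantile and is itself unreliable.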
